A study of Mus musculus with 8 samples.

Results

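Elastic fibres and the microfibrils that carry them were followed through 10 genes in the heart field of the mouse embryo: *Fbn1*, *Fbn2*, *Mfap2*, *Mfap4*, *Mfap5*, *Eln*, *Emilin1*, *Fbln5*, *Ltbp1* and *Ltbp3*. They were found by their symbol in a table of 48526 genes. The set was picked on the difference between the left and right sides, because the left library exceeded the right one for *Mfap4* in each of the 4 embryos, and the other genes came with it as its family and pathway. The left and right values of these 10 genes are therefore a description, without a test. The measure that did not choose them is the difference between embryos, and it was tested.

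The libraries came from 4 wild-type male C57bl6/J embryos at stage E8.5f, named L29-3, L43-5, L46-8 and L49-3. No embryo was treated or carried an engineered allele. The heart field of each embryo, the sheet of cardiac precursors behind and around the heart tube, was dissected without the heart and the back and split at the midline, so that each embryo gave a left and a right library of polyadenylated RNA. The 8 libraries were compared to ask which genes differ between the sides of the heart field.

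Microfibrils are bundles of fibrillin, a long secreted glycoprotein that assembles outside the cell. In tissues that stretch, such as arteries, tropoelastin is laid down on this scaffold and cross-linked by lysyl oxidases, with fibulin 5, EMILIN1 and the microfibril-associated proteins as linkers. Microfibrils also bind the latent TGF-beta binding proteins, which hold TGF-beta in an inactive state in the matrix, and several microfibril proteins are bound by integrins through the amino acids arginine, glycine and aspartate (RGD).

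Integrins read this RGD motif as a short loop, so its coding sequence is shown for the microfibril genes that carry it. The longest complete coding sequence of each gene in GENCODE vM21 (build GRCm38) was searched in frame on the coding strand for an arginine codon (CGN, AGA or AGG), a glycine codon (GGN) and an aspartate codon (GAT or GAC) in a row. At least 1 such site was present in 6 of the 10 genes, and it was present in 7.29% of 21334 mouse genes with a complete coding sequence and in 9.49% of those among the genes tested here. These shares are not matched for the length of the coding sequence. A site says only that the codons are present, and integrin binding at these sites was not tested. Each line below gives 45 bases of coding sequence, 5′ to 3′, with the RGD codons in capitals.
Mfap4: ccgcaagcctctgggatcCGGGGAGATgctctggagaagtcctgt
Mfap5: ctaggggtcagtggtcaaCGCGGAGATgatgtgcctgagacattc
Fbn1: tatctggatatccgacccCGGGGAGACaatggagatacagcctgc
Emilin1: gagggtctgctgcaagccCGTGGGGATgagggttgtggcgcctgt
Fbln5: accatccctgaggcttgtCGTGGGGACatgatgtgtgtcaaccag

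Positions are those of the 45 bases printed, not of the RGD codons alone. In *Mfap4* the motif takes codons 28 to 30 of 281, and the printed bases lie on the plus strand at chr11:61485778-61486054, across a splice junction. In *Mfap5* it takes codons 30 to 32 of 164, and the printed bases lie on the plus strand at chr6:122515359-122520598, also across a junction. The motif thus stood near the start of both of these short proteins. It was far inside *Fbn1*, at codons 1543 to 1545 of 2873 (printed bases on the minus strand at chr2:125345955-125345999), and inside *Emilin1*, at codons 578 to 580 of 1017 (printed bases on the plus strand at chr5:30918130-30918174). In *Fbln5* it took codons 67 to 69 of 461 (printed bases on the minus strand at chr12:101809909-101809953). *Fbn2* held 2 sites, which are not printed. No site was found in *Mfap2*, *Eln*, *Ltbp1* or *Ltbp3*, which says only that these codons do not stand in a row in the sequence searched. The proteins also differ in cysteine, the amino acid that folds the repeated modules of fibrillins. Cysteine codons made up 12.6% of *Fbn1* and 12.5% of *Fbn2*, 9.58% of *Ltbp3*, 8.89% of *Fbln5*, 8.64% of *Ltbp1* and 7.57% of *Mfap2*. The median over genes was 2.12%, close to *Emilin1* at 2.26% and *Mfap4* at 2.85%, and *Eln* had 0.233%.

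The total count per library ranged from 1147446 to 3520753 after the authors' removal of duplicate reads, and both libraries of L49-3 were the smallest. *Lefty2*, a target of left-sided NODAL signaling, had 65 to 197 counts on the left and 0 to 7 on the right, in the direction of the side labels in each embryo. The 8 marker genes of the second heart field were all detected, at a summed normalized count of 696 to 1082 per library. Of 11 lists of markers for the heart field and its neighbouring tissues, 0 had a summed level with more on the left in each of the 4 embryos, and the most was 3 embryos, for endothelium, neural crest and primitive blood. L49-3 lay within the range of the other embryos for markers of neural crest, surface ectoderm and primitive blood. It stood apart in some of the other lists, with 76.2 normalized counts of juxta-cardiac field markers against 399 to 425. Cardiomyocyte markers were at 1491 in L49-3 against 2778 to 5530, and neural tube markers at 685 against 260 to 355. Values without L49-3 are given below for this reason. In bulk tissue, fewer cells of a type and less RNA per cell cannot be told apart.

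A gene was tested when it reached a DESeq2-normalized count of 20, the background level of the study, in at least 4 of the 8 libraries, which 9744 genes did. Values of single embryos are listed in the order L29-3, L43-5, L46-8, L49-3. Of the 10 genes, 6 passed, each of them with at least 20 in 8 of 8 libraries: *Fbn1*, *Fbn2*, *Mfap2*, *Mfap4*, *Emilin1* and *Ltbp1*. The other 4, *Eln*, *Mfap5*, *Fbln5* and *Ltbp3*, did not pass, and only their counts are described.

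*Fbn2*, the fibrillin best known from embryonic tissue, had between 440 and 1528 counts per library and gave 53.8% to 60.2% of the summed normalized count of the 10 genes, a share that is not scaled by length. *Fbn1*, the fibrillin that is mutated in Marfan syndrome, had between 106 and 441 counts. Levels of different genes are compared only per length, as normalized count per kb of exon averaged over both sides of an embryo and then given as the mean ± SD over the 4 embryos. On this scale *Fbn2* was at 65.7 ± 6.82 and *Fbn1* at 17.8 ± 2.71, with *Fbn2* higher in each library. The ratio of *Fbn2* to *Fbn1* per kb was 3.76 ± 0.389 over the embryos. It ran from 3.18 in the right library of L43-5 to 4.89 in the left library of L29-3, and from 3.76 to 5.77 with the longest transcript as the length. Both fibrillins share exon bases with a gene on the opposite strand, and the use of strand in the counting is not given in the sources used here. *Gm9913* covers 20.1% of the exon bases of *Fbn1* and had 8 counts in all libraries together, and *Gm26507* covers 0.976% of those of *Fbn2* and had 114. These counts do not show how many reads of the fibrillins the overlap affected.

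**Figure D1:**
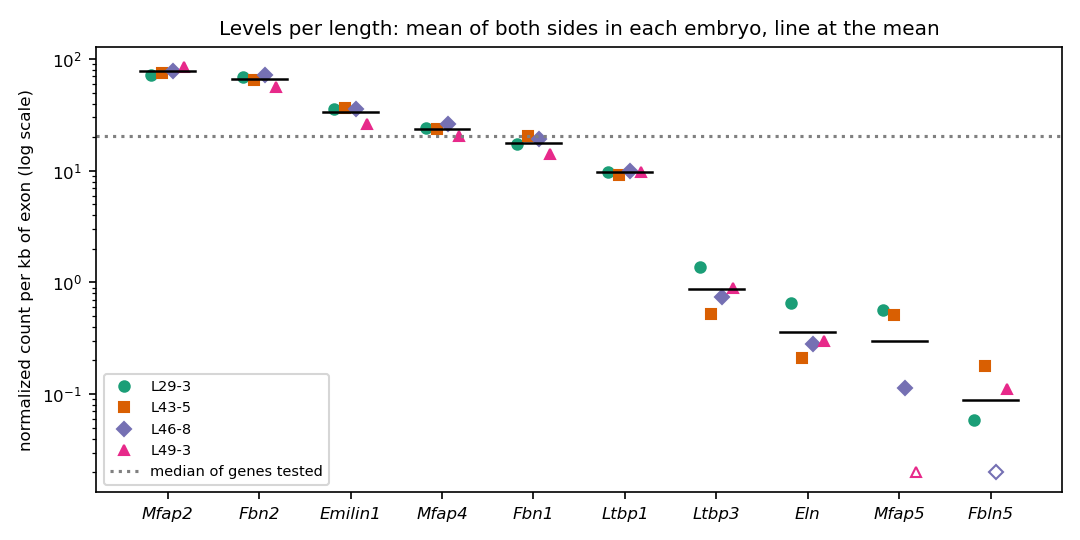
Level of each of the 10 genes as normalized count per kb of exon on a log scale, with 1 symbol per embryo (mean of both sides), a bar at the mean of the 4 embryos and a dotted line at the median of the genes tested (20.5). Open symbols at the bottom stand for a level of 0. The genes fall into a group of 6 between 9.67 and 77.5 and a group of 4 at 0.881 or less.

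The highest level per length belonged to *Mfap2*, which encodes MAGP-1, a small protein bound along fibrillin microfibrils, at 77.5 ± 5.40 normalized counts per kb (chr4:141010418-141015984). It was above *Fbn2* in 7 of 8 libraries and in all 4 embryo means, with a ratio of means of 1.18, so these neighbours were the least separate in mean of the 6, and 1 library had the opposite order. *Emilin1*, an elastin-associated glycoprotein that is also known to bind the TGF-beta precursor (chr5:30913402-30921277), came next at 33.5 ± 4.85, below *Fbn2* in 8 of 8 libraries. *Mfap4*, a fibrinogen-domain protein of elastic fibres with an integrin-binding motif (chr11:61485431-61488900), followed at 23.8 ± 2.38. *Mfap4* was above *Fbn1* in 6 of 8 libraries. The exceptions were the right libraries of L43-5 (16.9 against 19.4 normalized counts per kb) and L49-3 (13.8 against 14.8). The place of *Mfap4* above *Fbn1* thus includes the left values on which it was picked. *Fbn1* was above *Ltbp1* in 8 of 8 libraries. *Ltbp1*, which ties latent TGF-beta to microfibrils (chr17:75005568-75392512), was the lowest of those tested, at 9.67 ± 0.392 normalized counts per kb. Against all genes tested, whose median was 20.5, *Mfap2* was above 86.5% of them and *Ltbp1* above 24.2%. The order of the 10 genes was the same with the length of the longest transcript, although *Ltbp1* rose to 15.5 normalized counts per kb under that length.

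The elastin end of the pathway was near the floor. *Eln*, which encodes tropoelastin (chr5:134702593-134747323), had 25 counts in the 8 libraries together, between 1 and 7 in each. *Fbln5*, a fibulin needed for elastic fibre assembly (chr12:101746565-101819055), had 6 counts, with 0 in 4 libraries. *Mfap5*, which encodes MAGP-2, the relative of *Mfap2* (chr6:122505845-122529290), had 11 counts and none in either library of L49-3. These libraries do not have the depth to show a difference in such genes: a count of 0 allows up to 3 counts, which is 0.852 CPM (counts scaled to libraries of equal size) in the largest library and 2.61 CPM in the smallest, by counting error alone. *Ltbp3*, the second latent TGF-beta binding protein of the set (chr19:5740904-5758532), had 65 counts, between 4 and 17 per library. Per length, *Ltbp1* was 10.99 times *Ltbp3*, *Ltbp3* was above *Eln* in 8 of 8 libraries, and *Eln*, *Mfap5* and *Fbln5* could not be ordered, *Eln* being above *Mfap5*, and *Mfap5* above *Fbln5*, in 5 of 8 libraries. *Eln* shares 267 exon bases with *Gm30003* on the opposite strand.

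**Figure D2:**
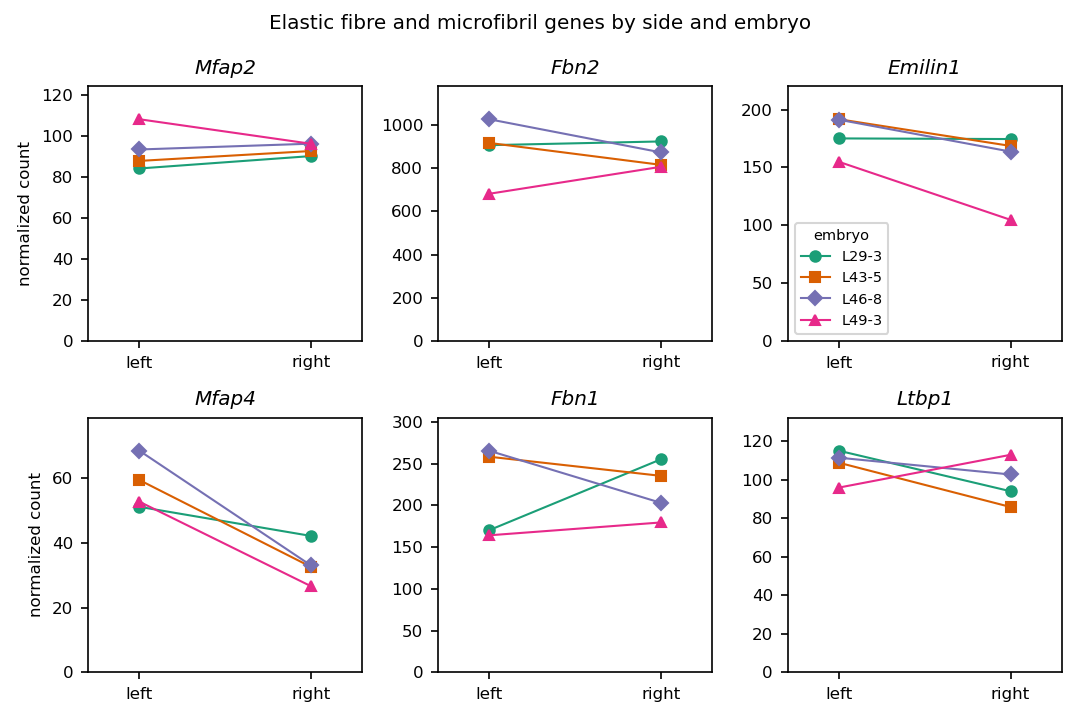
Normalized count on the left and right side of each embryo for the 6 genes tested, with a line joining the sides of an embryo and each axis starting at 0. *Mfap4* falls from left to right in each of the 4 embryos and its sides do not overlap, *Emilin1* is lower on the right in each embryo with overlapping sides, and the lines of the other genes cross.

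*Mfap4*, on which the set was picked, had left-sided normalized counts of 51.1, 59.3, 68.4 and 52.6. The right libraries of the same embryos had 42.1, 32.5, 33.0 and 26.6. The lowest left library lay above the highest right library, so the sides did not overlap. These values rest on 34 to 91 counts on the left and 16 to 61 on the right. The left mean was 57.9 ± 7.87 and the right mean 33.6 ± 6.396 (SD, n = 4), and the fitted log2 fold change of left over right was 0.78 with a standard error of 0.19, a fold of 1.72. Its log2 ratio of left over right in single embryos was 0.28, 0.85, 1.02 and 0.95, so L29-3 showed the smallest difference. Leaving out L49-3 gave a log2 fold change of 0.74, and leaving out the other embryos in turn gave values between 0.69 and 0.95. Of all genes tested, 0.0924% had a larger fold in favour of the left. Nothing is read from this share, because the set was picked on the left bias of *Mfap4*. *Mfap4* shares 89 of its exon bases, 4.63%, with *Mapk7* on the opposite strand, and *Mapk7* had a log2 fold change of −0.10 with a standard error of 0.10.

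*Emilin1* also had more on the left than on the right in each embryo, by a smaller margin. Its left-sided normalized counts were 175, 192, 191 and 155, and the right-sided ones 174.6, 169, 164 and 105. The sides overlapped, because L49-3 was low on both. The log2 ratio was 0.01, 0.18, 0.21 and 0.55. The fitted log2 fold change was 0.21 with a standard error of 0.10, and 0.14 without L49-3.

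*Ltbp1* had normalized counts of 115, 109, 111.5 and 96.0 on the left and 94.1, 85.9, 103 and 113 on the right. It was higher on the left in 3 embryos and lower in L49-3, where the log2 ratio was −0.24. The fitted log2 fold change was 0.16 with a standard error of 0.13, and 0.26 without L49-3.

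Both fibrillins and *Mfap2* had no common direction over the embryos, and for each of them and for *Ltbp1* the sides overlapped. *Fbn2* had 906, 917, 1026 and 681 normalized counts on the left and 924, 815, 873 and 806 on the right, higher on the left in L43-5 and L46-8 and lower in the other embryos. Its log2 fold change of 0.04, with a standard error of 0.08, was smaller than the spread of the log2 ratio over the embryos, an SD of 0.22. *Fbn1* had 170.2, 258, 265 and 164 normalized counts on the left and 255, 235, 203 and 179 on the right. It varied most between embryos in its side, with a log2 ratio of −0.57 in L29-3 and 0.38 in L46-8. The fitted value of *Fbn1*, −0.03 with a standard error of 0.13, became 0.15 without L29-3. *Mfap2* had 84.3, 88.0, 93.6 and 108 normalized counts on the left and 90.4, 92.8, 96.4 and 96.4 on the right. The fitted log2 fold change of *Mfap2* was −0.03 with a standard error of 0.12, and its right libraries had a mean of 94.0 with an SD of 2.95.

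**Figure D3:**
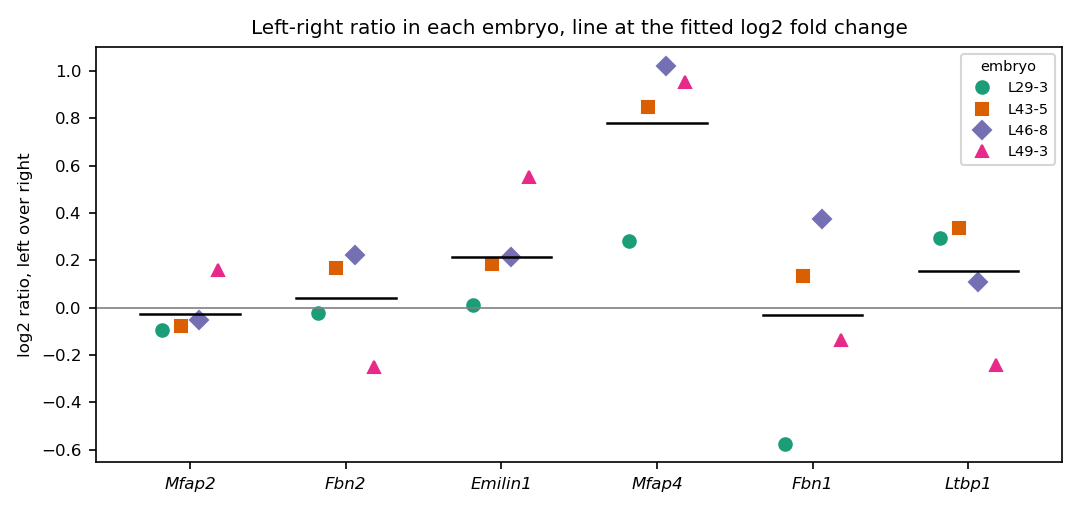
Log2 ratio of left over right (CPM with a pseudocount of 0.5) in each embryo for the 6 genes tested, with a bar at the fitted log2 fold change. *Mfap4* and *Emilin1* lie above 0 in each embryo, *Mfap4* between 0.28 and 1.02, and *Fbn1* has the widest range, from −0.57 to 0.38.

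By the threshold of the study, a fold of 1.2 or more and an unadjusted p of 0.05 or less, 297 of the 9744 genes tested were past it (3.05%), 159 higher on the left (1.63%) and 138 lower (1.42%). A log2 ratio above 0 in all 4 embryos was found for 6.26% of genes, and a lowest left library above the highest right library for 1.51%. Of the 6 genes tested, *Mfap4* and *Emilin1* were above 0 in all 4 embryos, and *Mfap4* also had sides without overlap. Nothing is read from this, since the set was picked on the contrast. For the same reason no p between the sides is given for these 6 genes. The median log2 fold change of the 6 was 0.10 and that of all genes −0.00. No marker list had a summed level higher on the left in each embryo, a pattern that only 6.26% of single genes had. A sum is weighted to its most abundant genes, and nothing is read from it about *Mfap4*. Of the 49 single marker genes tested, 3 had more on the left in 4 of 4 embryos (6.12%, beside 6.26% of all genes): *Pdgfrb* of the smooth muscle and perivascular list, *Fgf10* of the second heart field and *Kdr* of the endothelium, with log2 fold changes of 0.30, 0.24 and 0.20. The part of these genes and of the listed tissues in the values of *Mfap4* was not tested.

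Whether the embryos differed from one another was not used in the choice by side. It was tested with edgeR's quasi-likelihood F test of the embryo terms with the side in the fit. The left and right libraries stand for an embryo, so the test sets differences between embryos against the variation between its sides. That variation also bears on the left bias by which *Mfap4* was picked, so for *Mfap4* the test is not fully independent of the choice. At a Benjamini-Hochberg adjusted p under 0.05, 17 of the 9744 genes were called (0.174%), and 974 had an unadjusted p under 0.05. None of the 6 genes was called, and 2, *Emilin1* and *Fbn2*, had an unadjusted p under 0.05, against none at either level with DESeq2 and, with limma-voom, 0 at the adjusted and 2 at the unadjusted level. The mean of both sides of *Emilin1* was 175, 180.1, 177 and 130 normalized counts, with an adjusted p of 0.468. *Fbn2* was at 915, 866, 950 and 744 normalized counts, with an adjusted p of 0.493, and *Fbn1* at 213, 247, 234 and 172, with an adjusted p of 0.575. L49-3 was the lowest embryo for each of these 3 genes. *Mfap4* was also lowest in L49-3, at 39.6 against 45.9 to 50.7, with an adjusted p of 0.917.

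*Mfap2* ran the other way, highest in L49-3 at 102 normalized counts against 87.3 to 95.02, with an adjusted p of 0.885 from edgeR. *Ltbp1* was the most even, between 97.4 and 107 in the 4 embryos, with an adjusted p of 0.957. The highest embryo exceeded the lowest by a factor of 1.10 for *Ltbp1*, 1.17 for *Mfap2*, 1.28 for *Fbn2* and *Mfap4*, 1.39 for *Emilin1* and 1.44 for *Fbn1*. Beside these values, the summed normalized count of endothelial markers was 695 in L49-3 against 945 to 1040, and that of smooth muscle and perivascular markers 597 against 829 to 1206. The part of these tissues in the levels of L49-3 was not tested. With L49-3 left out, the adjusted p of the 6 genes was between 0.985 and 0.997. With low counts not filtered, *Fbn2* had an adjusted p of 0.0327 by edgeR, whereas that of *Fbn2* under the other alternatives went up to 1.0.

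The pathway around these genes was followed in 41 further genes of known role, a list of fibulins, EMILINs, lysyl oxidases, ADAMTS proteins, TGF-beta partners and integrins. Of these, 22 were tested, and 17 had a log2 fold change above 0 and 5 below it. Over all 9744 genes tested, 4734 had a value above 0. By the threshold of the study, 1 of the 22 was higher on the left, against 1.63% of all genes, 0 were lower, and 21 were not past it. The median log2 fold change was 0.12, from −0.25 to 0.75, beside −0.00 for all genes. No gene of the list had an adjusted p under 0.05 in either comparison by edgeR, where the smallest between embryos was 0.115, for the basement membrane proteoglycan *Hspg2*. DESeq2 and limma-voom also called 0 of the 22 at an adjusted p under 0.05 in both comparisons. At an unadjusted p under 0.05, edgeR gave 3 of the 22 between the sides, beside 4.36% of all genes tested, DESeq2 gave 2 beside 0.667%, and limma-voom 3 beside 4.69%. Between the embryos edgeR gave 8 of the 22, beside 974 of all 9744 genes, DESeq2 gave 4 beside 383, and limma-voom 9 beside 957.

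**Figure D4:**
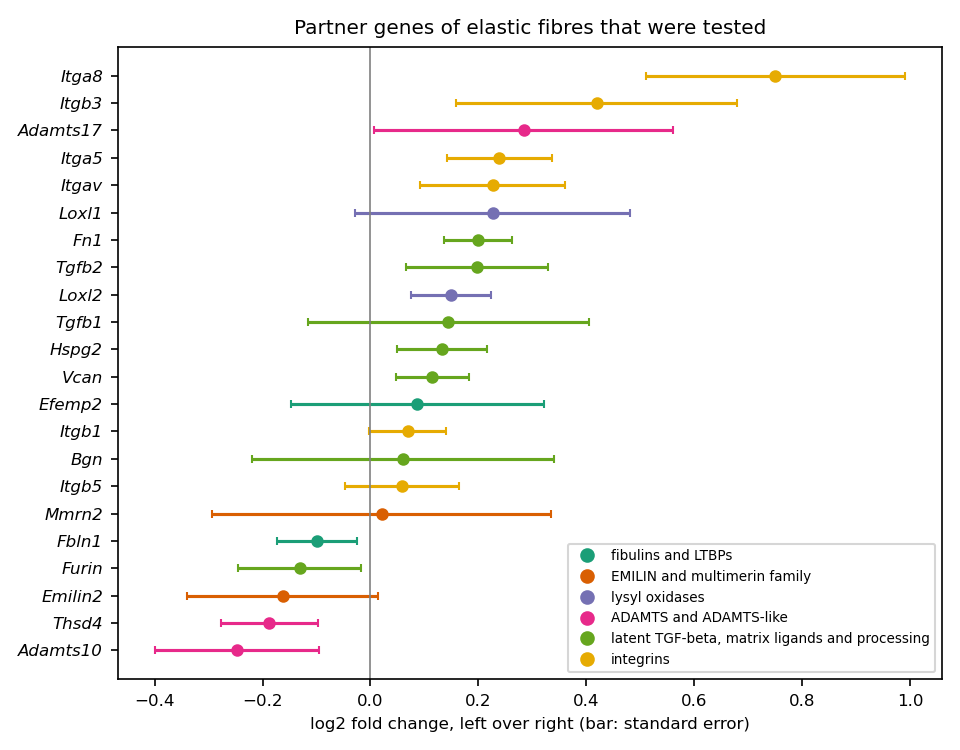
Log2 fold change of left over right with its standard error for the 22 partner genes tested, coloured by their group. *Itga8* has the highest value, 0.75, all 6 integrin chains lie above 0, and the lowest value is −0.25, for *Adamts10*. Of all 9744 genes tested, 4734 lie above 0.

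The gene past the threshold was *Itga8*, the integrin α8 chain, which pairs with *Itgb1* to bind RGD in matrix proteins. *Itga8* had normalized counts of 56.7, 61.9, 53.7 and 60.4 on the left and 38.4, 33.1, 50.8 and 15.0 on the right. The sides did not overlap, but the lowest left library, 53.7, lay just above the highest right one, 50.8, both of L46-8. Of all genes tested, 1.51% had a lowest left library above the highest right one. The right side of *Itga8* varied more than the left. The log2 fold change was 0.75 with a standard error of 0.24 (edgeR, adjusted p = 0.987). It had more on the left in 4 of 4 embryos, as had 6.26% of all genes tested. The log2 ratio was 0.07 in L46-8 and 1.94 in L49-3, and leaving out L49-3 gave a log2 fold change of 0.54, still past the study threshold. Over the alternatives that could give a value, its adjusted p in edgeR, limma and DESeq2 was between 0.0681 and 1.0.

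Integrin chains made up 8 of the 41 genes, of which 6 were tested: *Itgav*, *Itga5*, *Itga8*, *Itgb1*, *Itgb3* and *Itgb5*. Each had a log2 fold change above 0, as had 4734 of all 9744 genes tested. The values ran from 0.06 for *Itgb5* to 0.75 for *Itga8*, and only *Itga8* passed the threshold. *Itgb1*, the common beta chain, was at 171 normalized counts per kb, against 7.91 for *Itgav* and 6.28 for *Itga8*. Among 9 genes for TGF-beta ligands, matrix partners and processing, 7 were tested and none passed. Fibronectin, *Fn1*, on which fibrillin assembly depends, was the most abundant, at 340.2 normalized counts per kb. Its log2 ratio from TMM-scaled CPM was above 0 in 4 of 4 embryos, as for 6.26% of all genes tested. In L29-3, however, the sides were level and the order turned with the scaling. There the left library had 4109 DESeq2-normalized counts and the right one 4119. The fit gave a log2 fold change of 0.20 and a standard error of 0.06 (edgeR, adjusted p = 0.987), under the fold of 1.2. *Tgfb2*, a ligand that is stored with latent TGF-beta binding proteins, was at 50.8 normalized counts per kb, with a log2 fold change of 0.20 and a standard error of 0.13.

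The enzymes of elastin cross-linking were uneven. *Loxl2* was tested and was at 61.5 normalized counts per kb, with a log2 fold change of 0.15 and a standard error of 0.07. *Lox*, the founding lysyl oxidase, had 15 counts in the 8 libraries. Of 5 lysyl oxidases, 2 were tested, *Loxl1* and *Loxl2*, and neither passed. Of 7 further fibulins and latent TGF-beta binding proteins, *Fbln1* and *Efemp2* were tested. *Fbln1*, fibulin 1, was at 108 normalized counts per kb with a log2 fold change of −0.10 and a standard error of 0.07, whereas the related *Fbln5* had 6 counts in all. Of the 8 ADAMTS and ADAMTS-like genes, a family with members that bind fibrillin, 3 were tested and none passed. *Adamts10* and *Thsd4* had log2 fold changes of −0.25 and −0.19, with standard errors of 0.15 and 0.09, and lower values on the left in 4 of 4 embryos. The opposite pattern was found for 4 of the 22 partner genes tested, *Loxl2*, *Fn1*, *Itga5* and *Itga8*, and for 6.26% of all genes. The share of all genes lower on the left in 4 of 4 embryos was not counted, so nothing is read from these patterns. In the EMILIN and multimerin family, *Emilin2* and *Mmrn2* were tested of 4 genes and neither passed, and *Mmrn1* had no counts.

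The genes whose pattern over the 8 libraries was closest to that of *Mfap4* were *Fndc3b*, *Fgf13*, *Scube3*, *Cd248* and *6330403K07Rik*. Likeness was measured as the root mean square difference of log2 CPM, with each gene centred on its own mean. It was 0.18 for *Fndc3b*, 0.19 for *Fgf13*, 0.20 for *Scube3* and 0.21 for *Cd248* and *6330403K07Rik*, beside a median of 0.48 over all other genes tested. All 5 were higher on the left in 4 of 4 embryos, which the choice by likeness to *Mfap4* brings with it. Their log2 fold changes were between 0.48 and 0.62, below the 0.78 of *Mfap4*. Of the microfibril genes, *Emilin1* was the closest to *Mfap4*, at 0.30 and rank 112 of all genes, and *Fbn2* was next at 0.41 and rank 1721. *Mfap2*, which shares its name but is of another protein family, was at 0.46, near the median. Likeness includes the left and right values on which the set was picked, so nothing is read from these ranks. It is also not scaled to the spread of each gene, so a low value need not mean a shared pattern. *Fbn2*, for one, had a log2 fold change of 0.04.

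**Figure D5:**
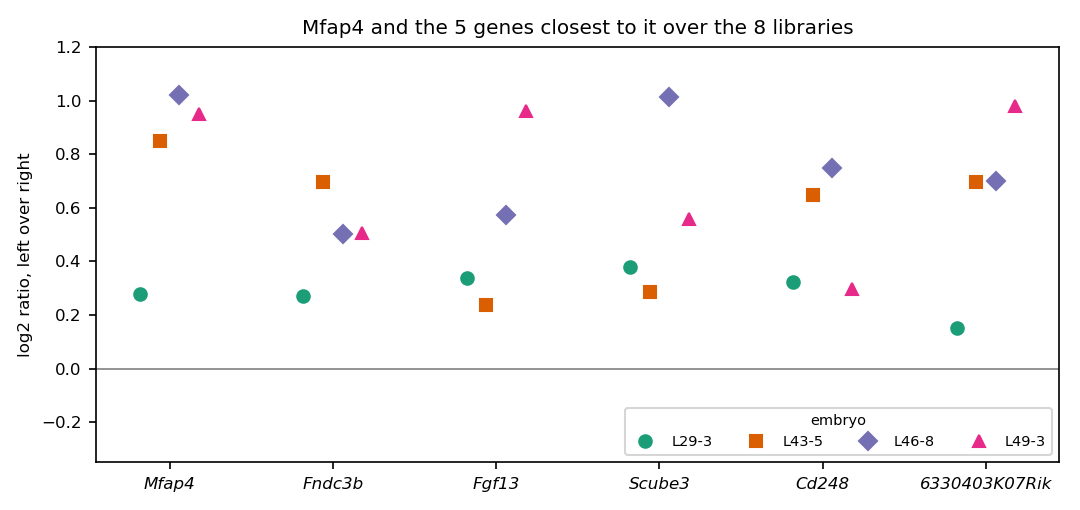
Log2 ratio of left over right in each embryo for *Mfap4* and the 5 genes closest to it over the 8 libraries. Each of the 24 points lies above 0, and those of *Mfap4* reach 1.02 in L46-8.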

How the data were processed

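RNA of the left and right heart fields of 4 embryos was measured in 8 libraries. The values deposited by the authors are raw counts per gene: paired-end reads were mapped with Hisat2 (GRCm38), stripped of duplicates and counted with featureCounts. Tool versions and the strand setting are not given in the sources used here. Excluding duplicates lowered the depth to 1147446 to 3520753 counts per library. Symbols, positions, exon lengths and coding sequences came from GENCODE vM21.

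Counts were fitted with edgeR 4.0.16 in R 4.3.3 (TMM, quasi-likelihood), with side and embryo as terms, on the 9744 genes that reached 20 DESeq2-normalized counts in 4 libraries or more. Adjusted p-values are Benjamini-Hochberg values over all genes tested. The libraries pair because both sides come from 1 animal. Correlations of same-embryo deviations were 0.165, 0.19, −0.02 and 0.437 in L29-3, L43-5, L46-8 and L49-3. A left and a right library of different embryos gave −0.389 to 0.255, and only the value of L49-3 lay above that range. No library pair agreed within sampling noise (smallest chi-square per degree of freedom 1.93). Per-library values are DESeq2-normalized counts. Log2 ratios used CPM with a pseudocount of 0.5.

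The 10 genes, the partner and marker lists and the tests were chosen with earlier results of these data known. Text names the 10 genes, partners past the study threshold, partners that mark the range, level or role of their list (chosen after their values were seen), and the 5 genes closest to *Mfap4*. Coding sequences were compared with all transcripts by BLAST; at 90% identity over 100 bases only *Fbn1* matched another gene, its antisense neighbour *Gm9913*. Settings varied were the scaling (size factors of DESeq2 or library size), the filter (none, or 10 counts or more in every library), the tool (DESeq2 1.42.0 or limma-voom, limma 3.58.1), no replicate block, no side term, longest transcript as length, and each embryo left out. Scripts were tested on simulated data.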

Additional observations from a re-analysis of the deposited data

Results flagged for a closer look

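*Emilin1* on the right side of L49-3 had a normalized count of 105, far from the other right libraries, which had 164 to 174.6. The gap to the nearest of the 4 values, divided by their range, was above Dixon's critical value for 4 values. Of 12 groups of 4 libraries examined, this was the only 1 past it, and chance alone flags about 1 in 20 such groups. The left library of L49-3 was also the lowest of its side, at 155. With L49-3 left out, the log2 fold change of *Emilin1* was 0.14 in place of 0.21.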

How the results depend on the processing

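The count of genes past the study threshold between the sides, 297 of 9744 tested, was 687 of 23873 without a filter on low counts. It was 59 with DESeq2, 233 without the replicate block (pairing by embryo), and 291 to 388 with an embryo left out. Its split, 159 higher on the left and 138 lower, was 190 and 113 with library size alone, and turned to 163 and 166 without L43-5 and 180 and 208 without L46-8. Between the embryos, 17 genes were called, against 641 of the 23873 without a filter and 9 with at least 10 counts in every library. The count was 48 with DESeq2, 4 with limma-voom, and 0 (without L49-3) to 237 (without L46-8) with an embryo left out. The causes of these shifts were not tested. Of the partner genes, 1 was past the threshold, against 2 without a filter (*Fbln2* beside *Itga8*), 0 with at least 10 counts in every library, where *Itga8* was not tested because of 9 counts in 1 library, and 1 to 4 with an embryo left out. Without L29-3 the 4 were *Fn1*, *Itga5*, *Itga8* and *Tgfb2*. The other alternatives kept these counts within 1.5 times. For the 6 microfibril genes tested, 66 alternative log2 fold changes moved by less than the spread over embryos. With 1 embryo left out a shift beyond that spread is hardly possible, so this count is no measure of stability. *Mfap4* ran from 0.69 to 0.95. The sign changed for *Fbn1* without L29-3 (0.15) and for *Fbn2* without L43-5 (−0.01) and without L46-8 (−0.02). Per-length levels moved by more than their SD with the longest transcript for *Mfap2* (87.4), *Fbn2* (78.7), *Emilin1* (42.98), *Ltbp1* (15.5), *Ltbp3* (1.39) and *Eln* (0.761). Leaving out the replicate block changed no call of a partner gene.

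With 16 to 91 counts of *Mfap4* per library and at most 17 of *Ltbp3*, counting error is a large part of the spread of the low genes, and *Eln*, *Mfap5* and *Fbln5* are too low for a left and right comparison. Intervals and floors cover counting error only. The 4 embryos limit any test between sides, and the embryo test has 2 libraries per embryo.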
